A study of Mus musculus with 6 samples.

Results

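The genes described here encode the clotting factors, their inhibitors and the enzymes of fibrinolysis. They were taken as all rows of the deposited tables whose symbol is on a list of 35 such genes, and 35 of 35 were found among the 49212 genes counted. All 35 passed the filter on low counts, F13a1 through its DHT libraries alone. Liver RNA came from C57BL/6J mice aged 15 weeks, with 3 libraries labelled placebo and 3 labelled as DHT pellet treated PCOS mice. DHT is dihydrotestosterone, an androgen, and PCOS is polycystic ovary syndrome, which the pellet is used to model. The labels give no sex, dose, duration of treatment or time of collection. Whether each library is a separate animal is not stated either, and the p-values then reflect only how far these 6 samples differ, which may be technical.

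Blood clotting is a relay of serine proteases. Tissue factor and factor VII start it, the contact factors and the factor VIII and IX complex amplify it, and factor X and its cofactor factor V turn prothrombin into thrombin, which converts fibrinogen to fibrin. Antithrombin, the protein C system and related inhibitors stop it, and plasmin dissolves the clot. Hepatocytes secrete most of these proteins, while factor VIII, von Willebrand factor, thrombomodulin and tissue factor pathway inhibitor come largely from endothelium.

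Total gene counts per library lay between 41336844 and 60209462. Levels are given as CPM, a gene's count scaled to the total of its library, after adjustment of the totals by TMM, which sets the bulk of genes equal between libraries. Expression of 4 Y-linked genes (Ddx3y, Eif2s3y, Uty and Kdm5d) summed, relative to all gene counts, was 0.114 to 0.182 CPM in the placebo libraries and 143 to 165 CPM in the libraries labelled DHT, so Y-linked expression and the treatment label cannot be told apart in any comparison below. The labels give no sex, but Y-linked RNA marks male tissue, and all 3 DHT libraries held it while the placebo libraries held almost none. Each difference called DHT below is therefore also one between libraries with and without Y-linked RNA, and treatment and sex cannot be told apart. Whether a library carries the wrong label was not tested, so each value called DHT below is that of libraries so labelled. Placebo 3 stood apart from placebo 1 and 2, and calls that change without it are given below. The albumin gene, the defining hepatocyte transcript, held 51387 to 96192 CPM across the 6 libraries.

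No clotting gene passed the test between the groups. By edgeR's quasi-likelihood test with Benjamini-Hochberg adjustment over 15126 genes, 0 of 35 had an adjusted p under 0.05, where 0.701% of all genes tested were called lower and 0.952% higher in DHT. At an unadjusted p under 0.05 there were 10 lower and 1 higher, against 8.52% and 7.4% of all genes. The 1 higher was F13a1, which passed the filter through its DHT libraries alone. The estimates nevertheless lay mostly on the same side: 32 of 35 were below 0, against 51.9% of all genes, and the median log2 fold change (DHT minus placebo) was −0.50, against −0.024 over all genes. Scaling by library size alone moved the median of all genes to 0.17 and that of the clotting genes to −0.31, so the distance between the medians was −0.47 with TMM and −0.48 without it. In liver tissue, fewer cells of a type and less RNA per cell cannot be told apart.

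**Figure D1:**
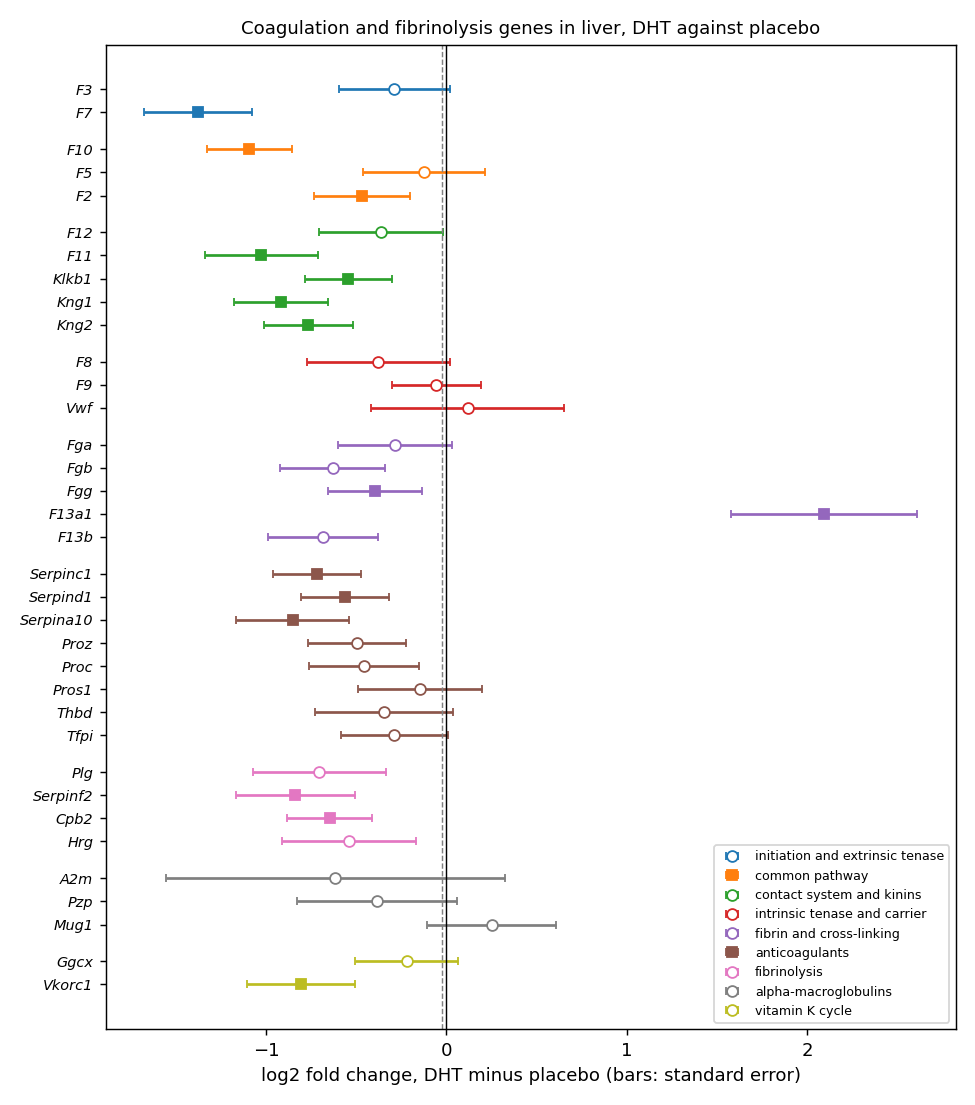
Log2 fold change (DHT minus placebo, x axis) with its standard error for each of the 35 genes (y axis, coloured by role); filled squares mark genes whose 3 DHT libraries do not overlap the 3 placebo libraries, the black line is 0 and the dashed line the median of all genes. F13a1 stands alone on the right at 2.10, and F7, F10 and F11 lie at −1 or below.

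In 14 of the 35 genes all 3 DHT libraries lay below all 3 placebo libraries, against 10.9% of all genes, and in 1 gene all 3 lay above, against 12.7%. Without composition scaling 9 lay below (background 6.27%) and 1 above (background 21.1%). The 14 genes were F7, F10, F2, F11, Klkb1, Kng1, Kng2, Fgg, Serpinc1, Serpind1, Serpina10, Serpinf2, Cpb2 and Vkorc1, and of these F2, F11, Fgg, Serpinf2 and Vkorc1 overlapped under library size alone. The 8 hepatocyte markers (Alb, Ttr, Apoa1, Apob, Cps1, Tat, Serpina1a and Hnf4a) had 6 of 8 estimates below 0 and 0 called, with Ttr near 0 and Apob (0.39) and Hnf4a (0.20) above it. Their summed level, most of it Alb, was 95536 to 134085 CPM in placebo and 73549 to 89506 CPM in DHT. None of the 8 was at 0 in all libraries. Their part in the lower clotting gene levels was not tested.

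Other fits of the same counts called some of the clotting genes. With the replicate number as a block, 3 were called lower (F7, F10 and F11; 5.28% of all genes) and 1 higher (F13a1; 5.44%). The labels name no pairs, and only the libraries numbered 3 stood out as a pair. Every p-value under the block, here and below, therefore rests on an assumed pairing. DESeq2 called 7 lower (F7, F10, F11, Kng1, Kng2, Serpinc1 and Cpb2; 3.73% of all genes) and 1 higher (F13a1; 3.29%). F13a1 passed the low-count filter through its DHT libraries alone, so its calls by the block and DESeq2 are no support for a rise. Limma voom with sample quality weights called 4 lower (F7, F10, F11 and Kng1; 2.24% of all genes) and 0 higher (2.43%). Without placebo 3, edgeR called 5 lower (F7, F10, F11, Kng1 and Serpinf2; 2.81% of all genes) and 0 higher (2.73%). With no low-count filter it called 1 lower (F7; 0.872% of all genes), and without both libraries numbered 3 it called 2 lower (F7 and F11; 1.2%). Without placebo 1, placebo 2, DHT 1, DHT 2 or DHT 3 it called 0 of 35, where 0.607, 0.671, 0.609, 0.539 and 1.06% of all genes were called in either direction.

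F7, F10 and F11 were called with the block, by DESeq2, by voom and without placebo 3, and the 300 bases around their transcription starts are printed here so that the promoters of the 3 genes with the lowest estimates can be read. They run from 250 bases before to 50 after the start (RefSeq, GRCm38.p6), at chr8:13025784-13026083 on the plus strand for F7, chr8:13037058-13037357 on the plus strand for F10 and chr8:45261982-45262281 on the minus strand for F11. Capitals mark matches, on either strand, to any of 7 short motifs: CAAAGT (one form of the core of HNF4 sites), TTGCNNAA (C/EBP factors), GTTAAT (HNF1), TTCNNNGAA (STAT5), CACGTG (E-box), AGAACA (steroid receptors) and TTANGTAA (D-box).
F7: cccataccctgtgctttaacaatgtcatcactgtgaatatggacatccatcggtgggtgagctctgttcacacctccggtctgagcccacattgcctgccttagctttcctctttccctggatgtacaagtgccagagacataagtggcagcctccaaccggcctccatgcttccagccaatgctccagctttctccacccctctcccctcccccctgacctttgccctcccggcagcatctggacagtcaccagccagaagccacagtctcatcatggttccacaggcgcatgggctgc
F10: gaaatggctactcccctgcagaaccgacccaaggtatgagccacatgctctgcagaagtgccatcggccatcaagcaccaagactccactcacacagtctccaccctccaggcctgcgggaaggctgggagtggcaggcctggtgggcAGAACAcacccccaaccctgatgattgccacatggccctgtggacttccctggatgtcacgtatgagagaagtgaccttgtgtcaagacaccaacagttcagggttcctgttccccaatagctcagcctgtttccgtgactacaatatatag
F11: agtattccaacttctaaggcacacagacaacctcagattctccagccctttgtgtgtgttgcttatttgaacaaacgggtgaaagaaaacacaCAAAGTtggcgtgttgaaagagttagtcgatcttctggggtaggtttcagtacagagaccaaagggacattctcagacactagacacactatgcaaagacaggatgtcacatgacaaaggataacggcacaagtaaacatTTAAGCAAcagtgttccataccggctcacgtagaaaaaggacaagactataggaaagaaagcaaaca

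F7 held none of the 7 motifs in this window. Only these strings were searched, so sites of other forms, those of HNF4 among them, can be present without capitals. F10 held AGAACA starting 102 bases before the start, a motif present in 19.0% of 32851 promoters of the same length. F11 held CAAAGT 157 bases before the start (14.4% of promoters) and TTGCNNAA on the minus strand 17 bases before it (10.8% of promoters). Promoters were found for 28 of the 35 genes, 30 windows in all. Of these 28 genes, 12 held AGAACA, 10 held TTGCNNAA, 9 CAAAGT, 7 GTTAAT, 4 TTCNNNGAA, 1 CACGTG (Tfpi) and 1 TTANGTAA (F13b). GTTAAT was in 7.1% of all promoters, TTCNNNGAA in 8.3%, CACGTG in 7.15% and TTANGTAA in 2.32%. A match is a description of letters and not a bound site.

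Tissue factor and factor VII start the cascade. F7, which encodes the protease that tissue factor binds (GRCm38 chromosome 8, 13026034 to 13035809), had 134, 165 and 102 CPM in placebo 1 to 3 and 61.9, 37.5 and 54.9 in DHT 1 to 3. Every DHT library lay below every placebo library, and the DHT mean was 61.4% lower (51.5 ± 12.6 against 133 ± 31.4 CPM, SD, n = 3 each). The log2 fold change was −1.37 ± 0.30 (edgeR adjusted p = 0.0742). The adjusted p was 0.000479 under the replicate block, 0.0105 without placebo 3 and 0.0307 with no low-count filter. It was 0.0979 with library size alone, and 0.127 to 0.297 when any library other than placebo 3 was left out. F3, the tissue factor gene, was measured at 3.87 ± 0.978 CPM in placebo and 3.17 ± 0.467 in DHT, and its groups overlapped (adjusted p = 0.676).

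Factor X, factor V and prothrombin form the common pathway. F10 (chromosome 8, 13037308 to 13056676) had 760.4, 730.0 and 736 CPM in placebo 1 to 3 and 352, 332 and 361 in DHT 1 to 3. Its groups were each tight, with a coefficient of variation of 2.16% in placebo and 4.24% in DHT, and placebo had the smallest such spread of all 35 genes. The DHT mean was 53.1% below placebo, a log2 fold change of −1.09 ± 0.24 (edgeR adjusted p = 0.0703; 0.0148 under the replicate block, 0.0246 without placebo 3). The adjusted p of F10 was 0.116 to 0.333 when any library other than placebo 3 was left out. F2, the prothrombin gene (chromosome 2, 91625320 to 91636414), had 2069.8, 2432 and 1742 CPM in placebo 1 to 3 and 1728, 1372 and 1414 in DHT 1 to 3. Its groups were separate but close, the lowest placebo and the highest DHT library differing by little, and the log2 fold change was −0.47 ± 0.27 (adjusted p = 0.423). F5, the cofactor of factor X, overlapped between the groups (−0.12 ± 0.34, adjusted p = 0.89), and its estimate was 0.064 with library size alone.

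The contact system starts clotting from charged surfaces and releases bradykinin from kininogen. F11, the contact factor that activates factor IX (chromosome 8, 45241174 to 45262031), had 89.3, 75.8 and 55.7 CPM in placebo 1 to 3 and 26.9, 32.0 and 49.6 in DHT 1 to 3. The groups did not overlap, although DHT 3 came near placebo 3. The log2 fold change was −1.03 ± 0.31 (edgeR adjusted p = 0.174; 0.0104 under the replicate block, 0.0356 without placebo 3, 0.019 without both libraries numbered 3). The adjusted p of F11 was 0.186 to 0.535 when any single library other than placebo 3 was left out. Kng1, a kininogen gene (chromosome 16, 23057865 to 23082068), had 3050.4, 3309 and 2430.5 CPM in placebo 1 to 3 and 1581, 1607 and 1469.7 in DHT 1 to 3. All DHT libraries were within a narrow band below placebo, and the DHT mean was 47.0% lower (−0.92 ± 0.26, adjusted p = 0.145; 0.0387 without placebo 3 and 0.00427 by DESeq2). For Kng1 the adjusted p was 0.0833 under the replicate block, and 0.19 to 0.476 when any library other than placebo 3 was left out.

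Kng2, its neighbour and close relative (chromosome 16, 22985854 to 23029101), had 364, 390.1 and 314 CPM in placebo 1 to 3 and 220.4, 225 and 183 in DHT 1 to 3. The estimate was −0.76 ± 0.25 (adjusted p = 0.193; 0.0237 by DESeq2). Kng1 held 7.13 to 8.48 times the counts of Kng2 across the 6 libraries, and 4.93% of the 100-base stretches in Kng1 transcripts also occur in Kng2, so some reads cannot be assigned between them. Klkb1, the plasma prekallikrein gene (chromosome 8, 45266689 to 45308466), had 486, 409 and 405 CPM in placebo 1 to 3 and 313, 279 and 301 in DHT 1 to 3. The groups were apart (−0.54 ± 0.24, adjusted p = 0.318). Among GENCODE transcripts, 42.1% of the 100-base stretches of Klkb1 are shared with the annotated gene Gm45753. In the annotation of the deposited counts, 5.46% of Klkb1 exon length overlaps other genes, chiefly Cyp4v3. How far the Klkb1 count is affected is not known. F12, which starts the contact system, overlapped between the groups (−0.36 ± 0.34, adjusted p = 0.63), with its lowest value in placebo 3 (279 CPM).

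**Figure D2:**
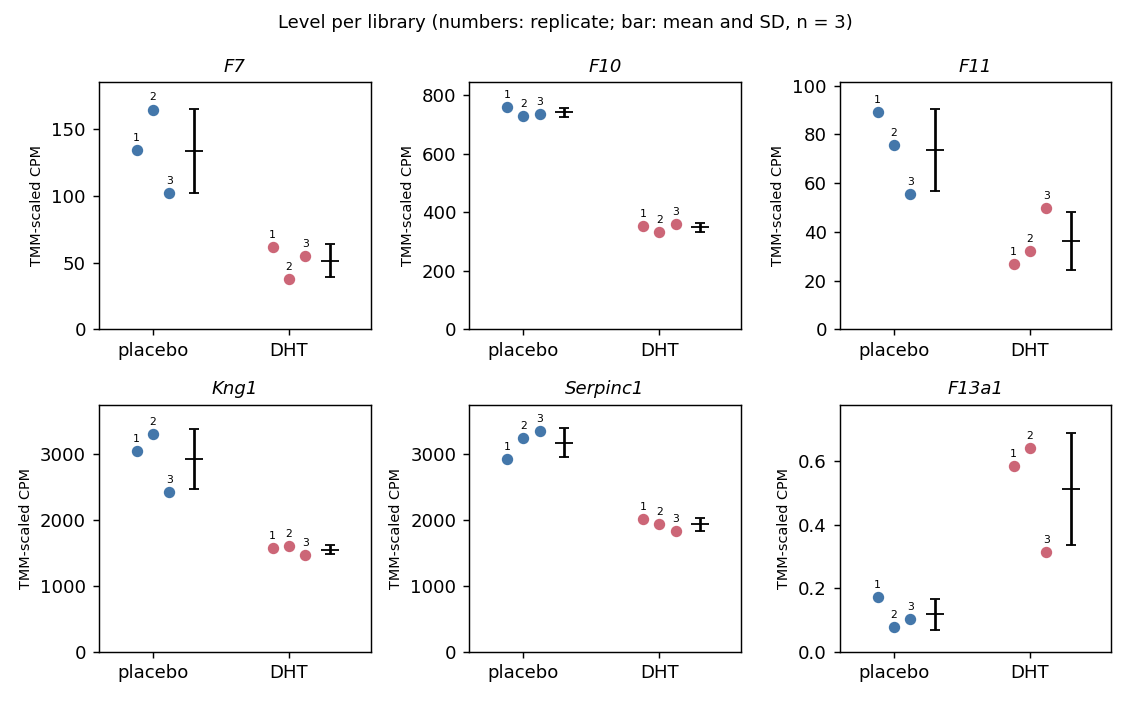
TMM-scaled CPM (y axis, from 0) in each library of the placebo and DHT groups (x axis, numbers give the replicate) for 6 genes, with the mean and SD of each group (n = 3). In F7, F10, F11, Kng1 and Serpinc1 the DHT points sit below all placebo points, and in F13a1, at under 1 CPM, above them.

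The genes of the factor VIII and IX complex overlapped between the groups in 3 of 3, with a median log2 fold change of −0.055. F9, a vitamin K dependent protease, was at 236 ± 31.7 CPM in placebo and 227 ± 23.4 in DHT, a log2 fold change of −0.055 ± 0.25 (adjusted p = 0.936) whose sign turned with library size alone (0.13). F8, the factor VIII gene, lay between 5.10 and 13.5 CPM and Vwf, which encodes its carrier, between 3.08 and 13.1 CPM, both lowest in placebo 3. Neither separated the groups (F8 −0.38 ± 0.39, adjusted p = 0.671; Vwf 0.12 ± 0.54, adjusted p = 0.938, and −0.27 without placebo 3). The summed level of 7 vascular endothelial markers was also lowest in placebo 3, 68.9 CPM against 204 and 128 in placebo 1 and 2 and 73.4 to 117 in DHT, and none of these markers was at 0 in all libraries. The 8 sinusoidal endothelial markers summed to 182 to 358 CPM in placebo and 154 to 205 in DHT, with 0 called. The part of either list in the levels of F8 and Vwf was not tested.

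Fibrinogen is built from 3 chains encoded by Fga, Fgb and Fgg. They lie side by side on chromosome 3, with no counted gene lying wholly between them. Per kilobase of exon these were the 3 most abundant transcripts of the set, at 1404 (Fgg), 959 (Fga) and 925 (Fgb) CPM per kilobase over the 6 libraries, followed by Plg (776), Kng1 (709) and Hrg (498). The chains differed in how evenly they were expressed. Fgg (chromosome 3, 83007724 to 83015049) had 3293, 3505 and 3214 CPM in placebo 1 to 3 and 2954, 2071 and 2595 in DHT 1 to 3. It kept nearly the same level in all placebo libraries, and DHT 1 to 3 lay below them (−0.39 ± 0.26, adjusted p = 0.493). Of the Fgg exon length, 5.49% overlaps other counted genes, chiefly Gm30097.

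Fgb (chromosome 3, 83040141 to 83049863) had 4948, 4809 and 3095 CPM in placebo 1 to 3 and 3191, 2549 and 2561 in DHT 1 to 3. Placebo 3 and DHT 1 overlapped, and the log2 fold change was −0.63 ± 0.29 (adjusted p = 0.337; 0.0897 without placebo 3). Fga (chromosome 3, 83026076 to 83033627) had 3105, 4101 and 2310.4 CPM in placebo 1 to 3 and 3249, 2161 and 2394 in DHT 1 to 3. Its groups overlapped widely (−0.29 ± 0.32, adjusted p = 0.688), and its estimate lay between −0.48 and −0.071 when 1 library was left out. For Fgg it was −0.26 without DHT 2.

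Factor XIII cross-links fibrin. F13a1, its catalytic subunit, which macrophages and megakaryocytes make (chromosome 13, 36867178 to 37050244), was the only gene of the 35 with higher values in all DHT libraries. It was scarce, with 10, 4 and 5 counts in placebo 1 to 3 and 36, 36 and 14 in DHT 1 to 3, or 0.172, 0.0788 and 0.103 CPM in placebo 1 to 3 and 0.584, 0.644 and 0.313 in DHT 1 to 3. The log2 fold change was 2.10 ± 0.51 (adjusted p = 0.1; 0.0126 under the replicate block and 0.0226 by DESeq2), and the gene did not reach 1 CPM in any library. All 3 placebo libraries fell short of the low-count filter, which F13a1 passed through its DHT libraries alone. The p-values after that filter are therefore no support for a rise. With no low-count filter edgeR's adjusted p was 0.0777. The 8 macrophage markers summed to 169 to 258 CPM in placebo and 176 to 246 in DHT, with 0 called and none at 0 in all libraries, and the 7 platelet and megakaryocyte markers, of which 4 were tested and 0 called, to 4.79 to 6.25 and 3.68 to 4.83 CPM. Their part in the F13a1 result was not tested. F13b, the liver-made carrier subunit, had an estimate below 0 (−0.68 ± 0.30, adjusted p = 0.322), at 280.0 ± 92.9 CPM in placebo and 174 ± 15.7 in DHT, with overlap.

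**Figure D3:**
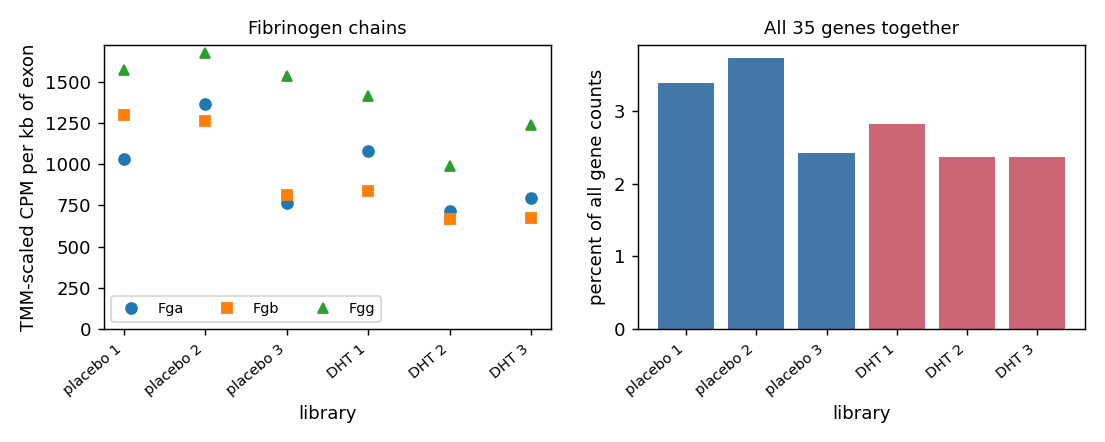
Left, TMM-scaled CPM per kilobase of exon (y axis, from 0) of the 3 fibrinogen chains in each library (x axis); right, the percent of all gene counts that fell on the 35 genes together (bars from 0, blue placebo, red DHT). Fgg stays highest in all 6 libraries, and placebo 3 sits with the DHT libraries in Fga, Fgb and the total.

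Anticoagulant genes had estimates below 0 in 8 of 8, none called. Serpinc1, which encodes antithrombin, the main inhibitor of thrombin and factor Xa (chromosome 1, 160978585 to 161005863), had 2928, 3247 and 3354 CPM in placebo 1 to 3 and 2018, 1948 and 1835 in DHT 1 to 3. Both groups were narrow and apart, and the DHT mean was 39.1% lower (−0.72 ± 0.24, adjusted p = 0.216; 0.0211 by DESeq2). Its exons overlap those of Zbtb37 over 34.4% of their length, so its count is uncertain. Serpind1, the heparin cofactor II gene (chromosome 16, 17331371 to 17343575), had 559, 648 and 593 CPM in placebo 1 to 3 and 452, 361 and 406 in DHT 1 to 3. Serpina10, which encodes the inhibitor that acts on factor Xa with protein Z (chromosome 12, 103614786 to 103631444), had 229.7, 244 and 429 CPM in placebo 1 to 3 and 159.9, 149 and 190.3 in DHT 1 to 3. Neither group overlapped the other in these genes, and their log2 fold changes were −0.56 ± 0.24 (adjusted p = 0.314) and −0.85 ± 0.32 (adjusted p = 0.247). Without placebo 3, its highest library, the estimate of Serpina10 was −0.51.

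Proz, the gene of protein Z itself, was at 387 ± 92.8 CPM in placebo and 274 ± 13.2 in DHT, with overlap (−0.50 ± 0.27, adjusted p = 0.402). Proc, the protein C gene, and Pros1, that of its cofactor protein S, overlapped as well (−0.46 ± 0.31, adjusted p = 0.497, and −0.15 ± 0.34, adjusted p = 0.87, with 0.034 for Pros1 under library size alone). Thbd encodes the endothelial receptor on which thrombin activates protein C, and Tfpi the inhibitor of the tissue factor complex. Thbd and Tfpi were low, with means of 3.38 and 5.78 CPM in placebo and 2.66 and 4.73 in DHT. The adjusted p-values were 0.687 and 0.662 by edgeR's test.

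Fibrinolysis genes had 4 of 4 estimates below 0, none called. Plg, the plasminogen gene (chromosome 17, 12378609 to 12419384), had 2758, 3669 and 1521 CPM in placebo 1 to 3 and 2002, 1453 and 1426 in DHT 1 to 3, and 8.94% of its 100-base stretches are shared with other genes. Placebo 3 lay among the DHT libraries, and the log2 fold change was −0.70 ± 0.37 (adjusted p = 0.381). It was −0.99 without placebo 3 (adjusted p = 0.0717) and −0.41 without placebo 2 (adjusted p = 0.549). Serpinf2, which encodes the plasmin inhibitor alpha-2-antiplasmin (chromosome 11, 75431732 to 75439591), had 1254, 1004 and 571 CPM in placebo 1 to 3 and 559, 521 and 503 in DHT 1 to 3. The 3 DHT libraries were close together just under placebo 3 (−0.84 ± 0.33, adjusted p = 0.272), and without placebo 3 the call was made (adjusted p = 0.0306). With another library left out the adjusted p of Serpinf2 reached 0.601.

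Cpb2, which encodes the carboxypeptidase that protects fibrin from plasmin (chromosome 14, 75242287 to 75283551), had 404, 445 and 426 CPM in placebo 1 to 3 and 297, 257 and 260.2 in DHT 1 to 3. Like F10 and Serpinc1 it was even within each group, and the DHT mean was 36.1% lower (−0.65 ± 0.24, adjusted p = 0.241; 0.0463 by DESeq2). Hrg, the histidine-rich glycoprotein gene, whose product binds plasminogen and heparin (chromosome 16, 22951072 to 22961656), had 1035, 1478 and 559 CPM in placebo 1 to 3 and 826, 651 and 637 in DHT 1 to 3. The groups overlapped, with placebo 3 lowest of all (−0.54 ± 0.37, adjusted p = 0.51). The estimate of Hrg was −0.19 without placebo 2 and −0.84 without placebo 3.

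The alpha-macroglobulins trap proteases of many kinds. Pzp, the abundant member in mouse liver, spanned 1468 to 4922 CPM, both ends of the range being placebo libraries (−0.39 ± 0.44, adjusted p = 0.704). Mug1, a murinoglobulin gene, had one of 3 estimates above 0 in the set (0.25 ± 0.36, adjusted p = 0.763), the others being Vwf and F13a1. Mug1 shares 6.28% of its 100-base stretches with other genes, most of them with Mug2. A2m was almost absent, with 0 to 15 counts per library. Of the vitamin K cycle, which readies F2, F7, F9, F10, Proc, Pros1 and Proz for calcium binding, the carboxylase gene Ggcx overlapped between the groups (−0.22 ± 0.28, adjusted p = 0.739).

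Vkorc1, the epoxide reductase that warfarin blocks (chromosome 7, 127893063 to 127895617), had 133, 106 and 198 CPM in placebo 1 to 3 and 80.7, 71.8 and 98.1 in DHT 1 to 3. It was highest in placebo 3, all DHT libraries were below placebo 2, and the log2 fold change was −0.81 ± 0.30 (adjusted p = 0.249), or −0.52 without placebo 3. Exons of Vkorc1 overlap those of Gm21974 over 47.7% of their length, so this count is uncertain.

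Several of the genes are neighbours on the chromosome. F7, F10 and Proz follow each other on chromosome 8 with 1498 and 4237 bases between them. Their log2 fold changes were −1.37 ± 0.30, −1.09 ± 0.24 and −0.50 ± 0.27. F11 and Klkb1, 4657 bases apart on the same chromosome, had −1.03 ± 0.31 and −0.54 ± 0.24. Hrg, Kng2 and Kng1 on chromosome 16 had −0.54 ± 0.37, −0.76 ± 0.25 and −0.92 ± 0.26. Fgg, Fga and Fgb on chromosome 3 had −0.39 ± 0.26, −0.29 ± 0.32 and −0.63 ± 0.29. Differences between neighbours were not tested, so these estimates do not show that neighbours differ.

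Together the 35 genes took 3.39, 3.73 and 2.42% of all gene counts in placebo 1 to 3 and 2.83, 2.37 and 2.36% in DHT 1 to 3. Placebo 3 lay within the range of DHT, while within each replicate number the share was lower in DHT, in 3 of 3 pairs. The mean share was 3.18 ± 0.680% in placebo and 2.52 ± 0.266% in DHT (SD, n = 3 each; exact two-sided permutation p = 0.2, where 3 against 3 cannot go below 0.1). With mitochondrial genes left out of the total, the same permutation test gave p = 0.4. Taken as pairs, with mitochondrial genes kept in the total, an exact two-sided sign-flip test gave p = 0.25, the smallest that 3 pairs allow. The difference of −0.658 percentage points was −1.04 without placebo 3 and −0.384 without placebo 2. Fibrinogen alone took 1.01 ± 0.190% and 0.842 ± 0.124% (exact permutation p = 0.3).

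Much of the spread lay within placebo. Placebo 3 was the lowest placebo library in 23 of the 35 genes and the lowest of all 6 libraries in 7, among them F12, F8, Vwf, Pzp and Hrg, while it was the highest placebo library in 5. The coefficient of variation was larger in placebo than in DHT in 27 of the 35 genes. Its median was 28.3% in placebo and 15.7% in DHT, and over all genes tested it was 36.4% and 17.6%. Among DHT libraries, DHT 1 was the highest in 24 genes. Leaving out 1 library moved the log2 fold change by over 1.5 times in 21 of the 35 genes. Those not among them were F7, F10, F2, F11, Klkb1, Kng1, Kng2, Fgb, F13a1, Serpinc1, Serpind1, Proz, Serpinf2 and Cpb2. The matching shares over all genes were not computed, so none of these counts is read as particular to the clotting genes.

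**Figure D4:**
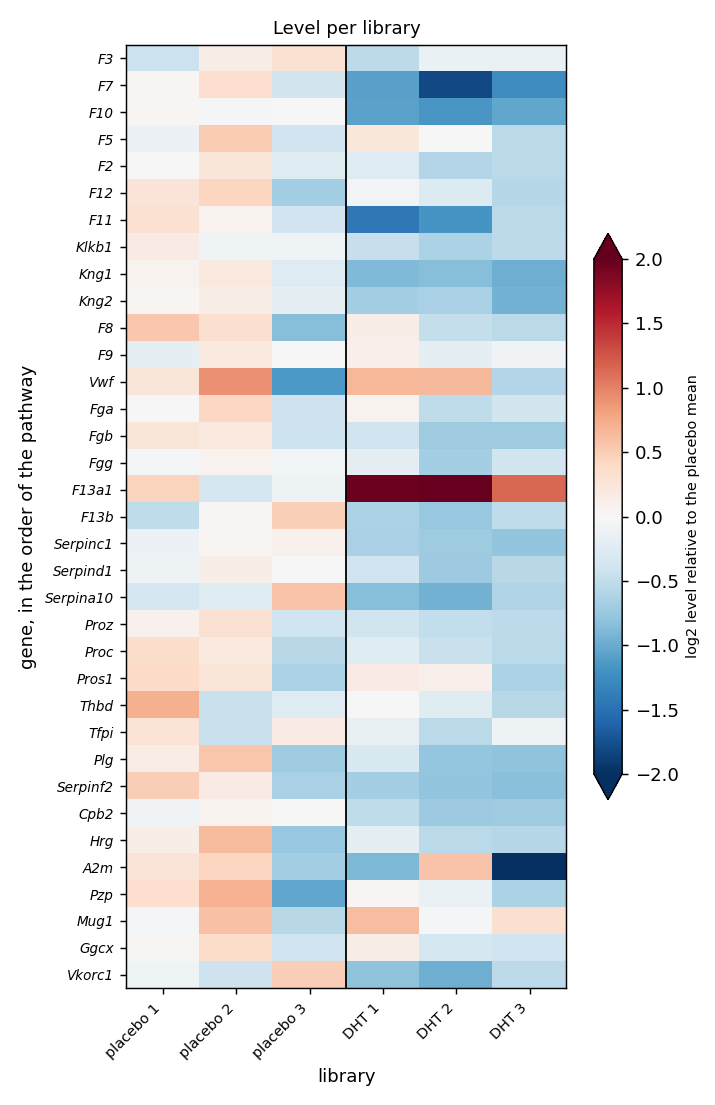
Log2 level of each gene (rows, in the order of the pathway) in each library (columns) relative to the mean of the placebo libraries, computed from TMM-scaled CPM plus 0.05, red higher and blue lower, with colours ending at ±2. F7, F10, F11, Kng1 and Serpinc1 are blue in all 3 DHT columns, F13a1 is red there, and placebo 3 is blue in many rows that are pale or red in placebo 1 and 2.

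Among other genes of clotting and fibrinolysis, 29 of a list of 32 were tested (not Serpina5, F2rl2 and F2rl3), and 1 was called lower (background 0.701%) and 0 higher by edgeR's test (background 0.952%). At an unadjusted p under 0.05, 2 were lower and 3 higher, where 8.52% and 7.4% of all genes were, so these counts are near the background. The median log2 fold change was −0.17, against −0.024 for all genes. Fgl1, a hepatocyte-secreted relative of the fibrinogen chains (chromosome 8, 41191434 to 41215156), had 549, 509.5 and 635 CPM in placebo 1 to 3 and 186, 169.5 and 244 in DHT 1 to 3. It fell in DHT to 199.8 ± 38.8 from 564 ± 64.3 CPM, 64.6% lower (SD, n = 3 each; edgeR adjusted p = 0.0364). Its log2 fold change was −1.498 ± 0.27, and it lay between −1.66 and −1.39 when 1 library was left out. The call was lost with library size alone (adjusted p = 0.0506) and without placebo 1 (0.105), placebo 2 (0.0741), DHT 1 (0.205), DHT 2 (0.189) or DHT 3 (0.0818), and it held without placebo 3 (0.0133).

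Anxa2 and S100a10 encode the parts of the annexin A2 complex, a cell-surface receptor for plasminogen and its activator. Anxa2 (chromosome 9, 69453620 to 69491795) had 21.5, 12.98 and 16.1 CPM in placebo 1 to 3 and 74.3, 69.4 and 28.3 in DHT 1 to 3. S100a10 (chromosome 3, 93555080 to 93564643) had 48.1, 48.4 and 129 CPM in placebo 1 to 3 and 165, 232 and 191 in DHT 1 to 3. The DHT libraries were above placebo in both genes, S100a10 with placebo 3 midway, and the log2 fold changes were 1.77 ± 0.40 (adjusted p = 0.0837) and 1.38 ± 0.43 (adjusted p = 0.178). Under the replicate block both were called (adjusted p = 3.33e-05 and 0.00031). Without placebo 3, S100a10 was called at 2.02 (adjusted p = 0.00268), and without DHT 3, Anxa2 was called at 2.10 (adjusted p = 0.0289). With another library left out, the adjusted p reached 0.28 for Anxa2 and 0.479 for S100a10.

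Serpine2, which encodes protease nexin 1, an inhibitor of thrombin and plasminogen activators (chromosome 1, 79794197 to 79861180), had 2.10, 2.13 and 1.30 CPM in placebo 1 to 3 and 8.23, 4.09 and 14.1 in DHT 1 to 3. It was high in all DHT libraries and most in DHT 3, with a log2 fold change of 2.25 ± 0.47 (adjusted p = 0.0674; 0.000322 under the replicate block and 0.0452 without placebo 3). With another library left out the adjusted p of Serpine2 reached 0.21. Itgb3, which encodes the beta subunit of the platelet fibrinogen receptor (chromosome 11, 104608000 to 104670476), had 6.85, 2.98 and 1.83 CPM in placebo 1 to 3 and 1.90, 1.68 and 1.499 in DHT 1 to 3. The groups overlapped, and placebo 1 stood far above the rest (−1.20 ± 0.48, adjusted p = 0.285). The estimate was −0.52 without placebo 1 (adjusted p = 0.507), and the gene was called lower without placebo 3 (adjusted p = 0.0429). Habp2, which encodes a plasma protease that binds hyaluronan, was also called lower without placebo 3 (−1.04, adjusted p = 0.0375), against −0.77 ± 0.34 and 0.316 with all libraries, and was named after its values were seen. Under the block the list had 3 genes called higher (Anxa2, S100a10 and Serpine2) and 1 lower (Fgl1), against 5.44% and 5.28% of all genes. With no low-count filter 2 were called higher (Anxa2 and Serpine2; 1.09% of all genes).

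**Figure D5:**
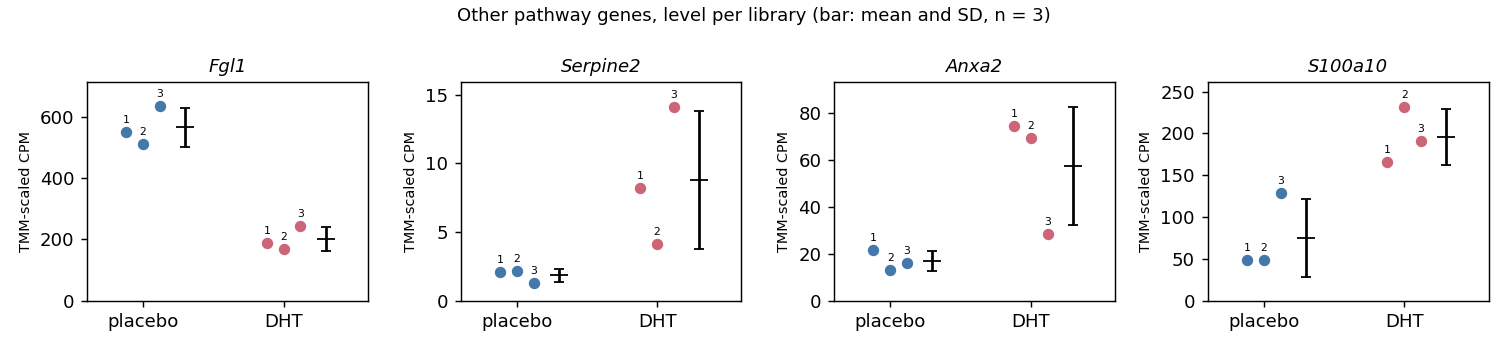
TMM-scaled CPM (y axis, from 0) in each library of the placebo and DHT groups (x axis, numbers give the replicate) for 4 other genes of the pathway, with the mean and SD of each group (n = 3). Fgl1 lies lower in all 3 DHT libraries, and Serpine2, Anxa2 and S100a10 lie higher.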

How the data were processed

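Gene counts per library were used as the authors deposited them, 1 table of whole numbers for each of 6 libraries, with no normalisation, per the file headers. The submitters' processing notes name Trimmomatic 0.36, STAR 2.5.2b, Subread 1.5.2 with featureCounts, and the build GRCm38. Strand setting and treatment of reads mapping to several genes: not given in the sources used here. From these counts, edgeR 4.0.16 in R 4.3.3 gave the main comparison of all 3 placebo and 3 DHT libraries: filterByExpr by group, TMM scaling, robust quasi-likelihood test, Benjamini-Hochberg adjustment over 15126 genes, threshold 0.05, no covariate. The standard error is the log2 fold change divided by the square root of F. Printed CPM are TMM-scaled unless stated.

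The alternatives were a replicate block, DESeq2 1.42.0, edgeR with the size factors of DESeq2 or with library size alone, a filter of 1 CPM in 3 libraries or none, removal of mitochondrial genes together with the 20 most counted, limma 3.58.1 voom and leaving out each library; leaving out both libraries numbered 3, overlap on unscaled CPM and the paired test of the share were added after seeing the data. Deviations of same-numbered libraries from their group means correlated at r = 0.246, 0.145 and 0.602 for numbers 1 to 3, across genes. Unlike numbers gave −0.495 to 0.445. Placebo 1 went best with DHT 2 (0.287) and placebo 2 with DHT 1 (0.445), so only number 3 stood out as a pair. Libraries were nonetheless taken as pairs by number, although the titles name no shared litter or batch. The replicate block and the paired test of the share rest on that choice. The scripts were tested on simulated data. Genes named with all values are those called in the main test or in an alternative with all 6 libraries, those whose groups do not overlap, the 6 highest per kilobase, and of the other pathway genes those called and the 5 with the smallest p. Members and lists were chosen with earlier results of these data known. In a single library 3 counts correspond to 0.0498 to 0.0726 CPM of all gene counts, which covers counting error only.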

Additional observations from a re-analysis of the deposited data

How the results depend on the processing

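The log2 fold changes of 30 of the 35 genes kept their sign under all alternatives run. The 5 exceptions were F5 (0.064 with library size alone, −0.31 to 0.17 leaving out 1 library), F9 (0.13, −0.17 to 0.034), Pros1 (0.034, −0.40 to 0.074), Vwf (−0.27 to 0.64 leaving out 1 library) and Thbd (−0.57 to 0.080). The cause was not tested. The number of all genes called, 250 in the main test, was 521 with no low-count filter, 1621 with the replicate block, 1062 by DESeq2, 707 by limma voom, 448 without both libraries numbered 3, and 84 to 862 leaving out 1 library, the highest without placebo 3. Clotting genes called lower, 0 in the main test, were 1 with no low-count filter (F7), 3 with the block, 7 by DESeq2, 4 by voom, 2 without both libraries numbered 3 (F7 and F11; 1.2% of all genes) and 0 to 5 leaving out 1 library. Those called higher, 0 in the main test, were 1 with the block and 1 by DESeq2 (F13a1 in both). F13a1 passed the filter through its DHT libraries alone, so these calls are no support for a rise. Genes whose DHT libraries all lay below placebo numbered 9 on unscaled CPM, against 14. In the list of other pathway genes, called higher were 2 with no filter (1.09% of all genes), 3 with the block (5.44%), 3 by DESeq2 (3.29%), 2 by voom (2.43%) and 0 to 2 leaving out 1 library (2 without placebo 3; 2.73%), against 0; called lower were 0 with library size alone and 0 to 3 leaving out 1 library (3 without placebo 3; 2.81%), against 1. The share of counts on the clotting genes differed by −1.04 to −0.384 percentage points leaving out 1 library, and by −1.03 as TMM-scaled CPM. With mitochondrial genes left out of the total it differed by −0.625, and the pair numbered 3 turned. The replicate block changed the calls of F7, F10, F11, F13a1, Anxa2, S100a10 and Serpine2 among the genes named, and of no other. F13a1 and A2m, under 1 CPM in every library, rest on few counts and have no value under the filter of 1 CPM in 3 libraries.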
